A study of Homo sapiens with 6 samples.

Results

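The interferon response and RNA sensing genes described here are 55 genes taken by symbol from a table of 57688 rows, and each symbol was found. The list holds 12 transcription factors and sensors and 43 effectors. WM3248, a cell line grown from a primary melanoma, had been transfected with a lipid reagent at 30 nM siRNA and harvested after 48 h. The siNC group (n = 3 libraries) received the AllStars negative control siRNA, and the siPGC1a group (n = 3) received an siRNA against PPARGC1A, the gene of the coactivator PGC1-alpha. All cells had thus been transfected, each arm rests on 1 catalogued siRNA in 1 cell line, and untransfected cells were not analysed here. Whether the 3 libraries of an arm are independent cultures is not labelled, and the p-values cover only their spread, which may be technical. Of the 55 members, 46 had a mean of at least 1 FPKM over the 6 libraries and were tested, and the other 9 are given as values.

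Cells detect foreign or misplaced RNA with receptors in the cytosol (DDX58, IFIH1) and in endosomes (TLR3), which signal through adaptors such as MAVS to the transcription factors IRF3 and IRF7 and switch on interferon genes. Secreted interferon then acts through its receptors and JAK kinases on a complex of STAT factors with IRF9, which binds a DNA element called ISRE in the promoters of interferon-stimulated genes. Their products block virus entry, translation and RNA replication, and many are expressed at a low level without infection.

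The ISRE core was looked up in the promoters because it is the element through which many interferon-stimulated genes respond. Whether the members share a regulator was not tested. It was searched as GAAANNGAAA, which reads TTTCNNTTTC on the other strand, in the 250 bases before to 50 bases after each gene's start. Promoters from RefSeq (GRCh38.p14) were searched for 44 members, and not for IRF3, IRF7, DHX58, IFIT2, IFITM2, OAS2, OASL, MX2, USP18, TRIM22 and GBP2. At least 1 match stood in 26 of these 44 promoters (59.1%), against 996 of 27305 promoters of all genes (3.65%) and 251 of 9010 promoters of tested genes (2.79%). The list was made of interferon response genes, so this excess goes with how it was drawn up and says nothing about siPGC1a. A match is a description of the letters, not a shown binding site. The lack of a match does not show that an element is absent. The promoters of OAS1 and DDX58, counted without a match, hold GAAA words at a closer spacing. Within the list, 12 of 18 promoters of lower members held a match, as did 10 of 16 promoters of members that did not pass the test and 1 of 2 promoters of higher members. Matches therefore stood beside all 3 kinds of outcome. UBE2L6 and HERC6, the lower members with the smallest adjusted p, held no match and are not printed below. The element of signalling by interferon gamma, searched as TTCNNNGAA, stood in 10 of the 44 member promoters (22.7%) and in 7.88% of all. The stretches below show the ISRE-like matches in capitals with 40 bases on either side. The first 7 belong to the lower members with the largest changes among those with a match, at chr14:94110588-94110690 (IFI27, plus strand), chr10:89327801-89327924 (IFIT3, plus), chr12:112938291-112938511 (OAS3, plus), chr10:89392467-89392569 (IFIT1, plus), chr1:78649731-78649820 (IFI44, plus), chr3:122680770-122680859 (PARP14, plus) and chr7:93118066-93118155 (SAMD9, minus). ISG20 (chr15:88638907-88638996, plus) was the higher member with a match. ISG15 (chr1:1013344-1013439, plus) and IFITM3 (chr11:320846-320952, minus) were added after their values were seen, as matches in genes that did not pass the test.
IFI27: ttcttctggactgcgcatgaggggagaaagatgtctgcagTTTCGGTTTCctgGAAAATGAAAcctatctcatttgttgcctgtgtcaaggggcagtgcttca
IFIT3: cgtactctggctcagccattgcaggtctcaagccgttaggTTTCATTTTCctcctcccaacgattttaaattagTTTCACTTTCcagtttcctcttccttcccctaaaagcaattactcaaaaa
OAS3: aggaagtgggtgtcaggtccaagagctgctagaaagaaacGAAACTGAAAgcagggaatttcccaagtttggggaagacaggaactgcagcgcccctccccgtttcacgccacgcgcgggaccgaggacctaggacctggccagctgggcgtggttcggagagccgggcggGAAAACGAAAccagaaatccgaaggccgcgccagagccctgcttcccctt
IFIT1: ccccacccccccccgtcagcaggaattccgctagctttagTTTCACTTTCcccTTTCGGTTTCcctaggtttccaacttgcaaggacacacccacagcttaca
IFI44: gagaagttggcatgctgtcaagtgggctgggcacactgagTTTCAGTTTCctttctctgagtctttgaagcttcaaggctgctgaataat
PARP14: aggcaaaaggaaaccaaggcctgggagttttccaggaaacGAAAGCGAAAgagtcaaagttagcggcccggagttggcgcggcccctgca
SAMD9: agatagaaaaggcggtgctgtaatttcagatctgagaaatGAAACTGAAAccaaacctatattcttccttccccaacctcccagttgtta
ISG20: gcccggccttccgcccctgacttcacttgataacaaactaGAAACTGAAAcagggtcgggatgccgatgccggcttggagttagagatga
ISG15: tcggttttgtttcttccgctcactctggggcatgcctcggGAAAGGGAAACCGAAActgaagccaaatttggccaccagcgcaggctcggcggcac
IFITM3: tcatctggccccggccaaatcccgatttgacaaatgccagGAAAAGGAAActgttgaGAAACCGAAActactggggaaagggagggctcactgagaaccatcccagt

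Depth was even, with 25180000 to 26440000 reads per library. PPARGC1A stood at 0.932, 1.04 and 0.947 FPKM in the siNC libraries and at 0.4, 0.354 and 0.413 FPKM in the siPGC1a libraries (limma adjusted p = 0.000234). Recovered reads gave a chi-square per degree of freedom of 1.95 to 5.86 between libraries of a group and 27.1 to 36.3 across groups, so none was a duplicate. Of 7 melanocyte lineage markers 6 had a mean of at least 1 FPKM, with a summed level of 645.3 to 667.3 FPKM in siNC and 474.8 to 514.4 FPKM in siPGC1a. Nearly all of this sum was DCT (mean 393.9 FPKM in siNC and 253.3 in siPGC1a) and SOX10 (246.3 and 230.0). The other markers of this lineage had siNC means of at most 7.24 FPKM (MITF). Markers of plasmacytoid dendritic cells, the main interferon producers of blood, summed to at most 0.026 FPKM in any library (LILRA4 and IL3RA listed at 0). The 0 of IL3RA may stand for reads not assigned, since no exon length could be set for its symbol. The 7 leukocyte markers summed to 3.23 to 3.53 FPKM in siNC and 2.75 to 2.96 FPKM in siPGC1a, with PTPRC listed at 0. The endothelial markers found summed to at most 0.171 FPKM. Keratinocyte markers summed to 20.5 to 21.3 and 20.7 to 25.8 FPKM, nearly all of it KRT10, with KRT1 listed at 0. Fibroblast markers summed to 15.1 to 16.0 and 10.2 to 11.7 FPKM, and the part of this list in the results was not tested.

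Among the controls, siNC replicate 2 stood apart for these genes. It was the highest siNC library for 33 of the 46 tested members (71.7%), whereas over all tested genes it was the highest for 33.4%. Its median deviation from the siNC mean was 0.06 on the log2 scale for the tested members and -0.0036 for all tested genes. Counts are therefore given also without it. Leaving it out moved the log2 difference of none of the 28 called members by more than 1.5 times.

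Across the tested members, 25 fell, 3 rose and 18 did not pass the threshold. By the same test 22.5% of all tested genes were lower, 25.6% were higher and 48.1% passed in either direction. The members were chosen with earlier results of these data known, so setting them against all genes is a description. The median difference (siPGC1a minus siNC, log2(FPKM + 1)) was -0.17 over the 46 members and 0.01 over all 12020 genes. Without siNC replicate 2 the counts were 24 lower and 4 higher, against 19.1% lower and 21.9% higher among all genes. In 27 members every siPGC1a value lay below every siNC value and in 5 above, against 27.4% and 29.8% of all tested genes. An exact permutation test of such a gene gives p = 0.1, below which 3 libraries a group cannot go. Sensors and transcription factors gave 3 lower, 2 higher and 5 not past of 10 tested, and effectors 22 lower, 1 higher and 13 not past of 36. Whether these classes differ was not tested. The filter lies at a mean of 1 FPKM, with USP18 (1.055 FPKM) and ISG20 (1.07 FPKM) just inside it and IRF9 (0.953 FPKM) just outside.

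**Figure D1:**
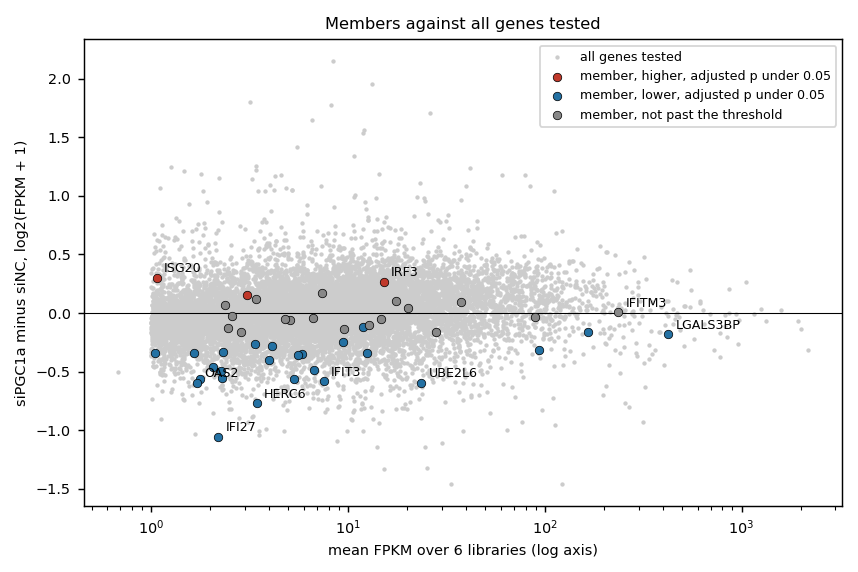
Difference between siPGC1a and siNC (log2(FPKM + 1)) against mean FPKM over the 6 libraries (log axis) for all 12020 tested genes in grey and the 46 tested members in colour by their call. The members lie mostly below 0 (36 of 46), with IFI27 lowest at -1.06 and the abundant IFITM3 at 0.01.

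**Figure D2:**
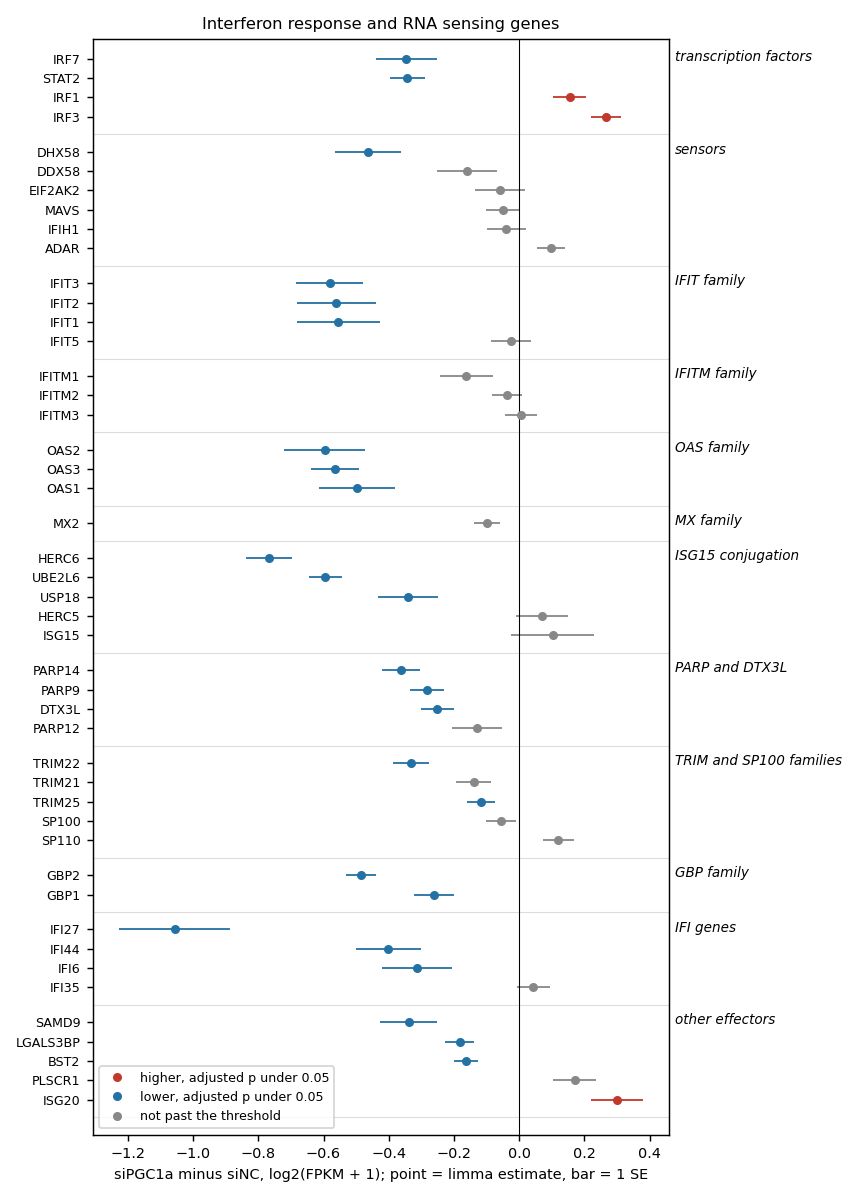
Difference between siPGC1a and siNC for the 46 tested members on the log2(FPKM + 1) scale, grouped by role. Points are limma estimates, bars are 1 SE (n = 3 libraries per group) and colours give the call at an adjusted p of 0.05. The 25 lower members lie to the left, led by IFI27 at -1.06, and IRF3, IRF1 and ISG20 are the 3 higher ones.

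The transcription factors went both ways: STAT2 and IRF7 fell, IRF3 and IRF1 rose. STAT2, the transactivating partner of IRF9, stood at 13.5, 15.0 and 13.8 FPKM in siNC and at 11.6, 10.7 and 10.4 FPKM in siPGC1a. No siPGC1a library reached the lowest control (log2 difference -0.34, SE 0.055, limma adjusted p = 0.000781). IRF7, which amplifies interferon production, was at 5.58, 7.84 and 6.67 FPKM in siNC and at 5.37, 4.91 and 4.76 FPKM in siPGC1a. The gap between the groups was narrow, at 5.58 against 5.37 FPKM, and most of the spread lay among the controls (log2 difference -0.35, SE 0.094, adjusted p = 0.0127). The IRF7 call ended without a filter on low values (adjusted p = 0.0942). IRF3, the factor that sensors activate first, was at 13.3, 14.6 and 13.4 FPKM in siNC and at 17.0, 16.8 and 16.4 FPKM in siPGC1a. Each siPGC1a library was above each control (log2 difference 0.27, SE 0.046, adjusted p = 0.00119). Its exons overlap those of BCL2L12 on the other strand over 734 bases, so its value is uncertain for the unstated strand setting. IRF1, a factor induced by interferon gamma, was at 2.87, 2.85 and 2.82 FPKM in siNC and at 3.11, 3.31 and 3.44 FPKM in siPGC1a (log2 difference 0.16, SE 0.051, adjusted p = 0.0296). This rise was lost on leaving out any library but siPGC1a replicate 1 (adjusted p = 0.0606 to 0.0896) and without a filter (0.0657). IRF9, the DNA-binding partner of STAT2, was at 0.967, 1.16 and 0.855 FPKM in siNC and at 0.897, 0.974 and 0.86 FPKM in siPGC1a, and the groups overlapped. Another gene annotated on the same strand shares 1838 exon bases with IRF9, so reads may have been split or dropped there.

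Of the 6 tested sensors and adaptors only DHX58 passed the threshold. DHX58 (LGP2), a helicase that tunes the other RNA sensors, was at 2.17, 3.21 and 2.31 FPKM in siNC and at 1.70, 1.58 and 1.42 FPKM in siPGC1a. The groups did not overlap, and siNC replicate 2 was well above the other controls. The log2 difference was -0.46 (SE 0.101, limma adjusted p = 0.00436), and the mean ratio went from 0.611 to 0.699 without siNC replicate 2, with an adjusted p of 0.0063. TLR3, the endosomal receptor for double-stranded RNA, lay below the filter at 0.72, 0.755 and 0.63 FPKM in siNC and 0.303, 0.372 and 0.234 FPKM in siPGC1a. Every siPGC1a library was lower, at 41 to 63 reads against 107 to 130. With no filter on low values TLR3 passed as well (log2 difference -0.39, adjusted p = 0.00995).

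The cytosolic receptors themselves did not pass. DDX58 (RIG-I), a receptor for RNA with an uncapped end, was at 2.98, 3.42 and 2.79 FPKM in siNC and at 2.77, 2.16 and 3.02 FPKM in siPGC1a (adjusted p = 0.181). IFIH1 (MDA5), a receptor for long double-stranded RNA, was at 6.67, 7.15 and 6.48 FPKM in siNC and at 6.47, 6.11 and 7.12 FPKM in siPGC1a (adjusted p = 0.608). In both genes the groups overlapped. MAVS, their mitochondrial adaptor, was at 15.0, 15.4 and 14.7 FPKM in siNC and at 15.4, 14.6 and 13.5 FPKM in siPGC1a (adjusted p = 0.431). EIF2AK2 (PKR), a kinase that halts translation on binding double-stranded RNA, was at 5.10, 5.37 and 5.13 FPKM in siNC and at 5.56, 4.24 and 5.14 FPKM in siPGC1a (adjusted p = 0.551). ADAR, which edits adenosines in double-stranded RNA, was the most abundant of these genes, at 35.4, 37.8 and 35.6 FPKM in siNC and 39.9, 38.0 and 38.7 FPKM in siPGC1a. Its siPGC1a values lay above its siNC values with little room, and its adjusted p was 0.0792, or 0.0248 with sample weights.

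**Figure D3:**
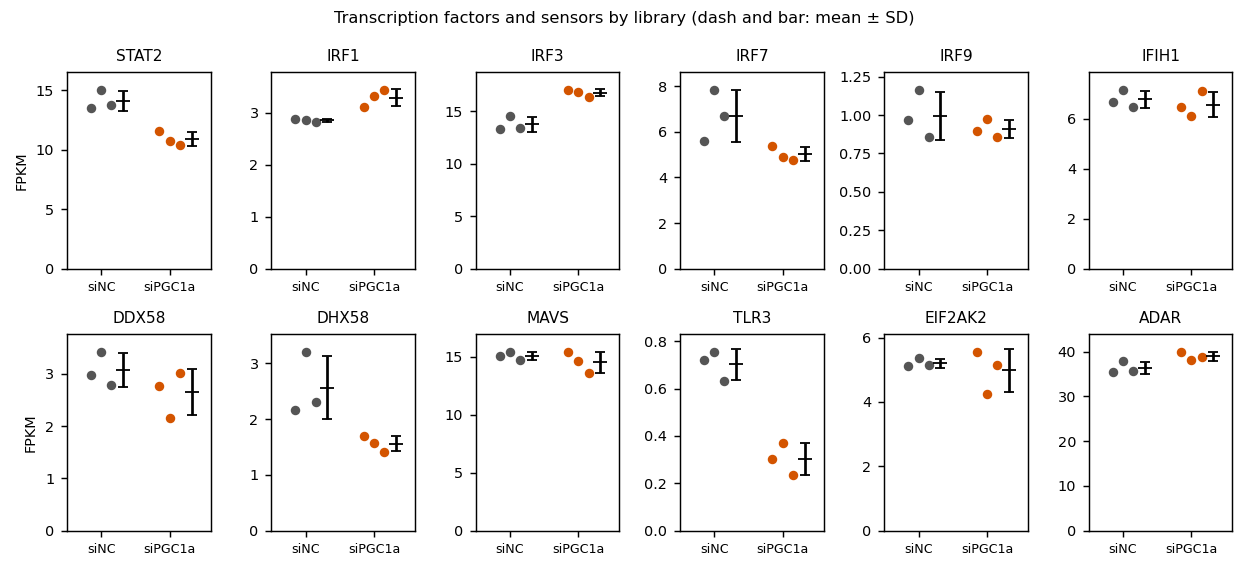
FPKM of the 5 transcription factors and 7 sensors in each library (points, replicates 1 to 3 from left to right within a group), with mean and SD beside them (n = 3). The y axes start at 0. STAT2, IRF7, DHX58 and TLR3 have all siPGC1a points below the siNC points, IRF1, IRF3 and ADAR above, and the other 5 overlap.

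IFIT proteins bind viral RNA ends and block its translation, and 3 of 4 fell. IFIT3 was at 8.33, 10.9 and 8.52 FPKM in siNC and at 5.12, 5.75 and 6.64 FPKM in siPGC1a (log2 difference -0.58, SE 0.102, limma adjusted p = 0.00134). IFIT1 was at 2.62, 3.90 and 2.32 FPKM against 1.84, 1.46 and 1.67 FPKM (log2 difference -0.55, adjusted p = 0.00562). IFIT2 was at 1.95, 3.14 and 1.88 FPKM against 1.19, 1.25 and 1.22 FPKM (log2 difference -0.56, adjusted p = 0.00411). In these 3 genes siNC replicate 2 was the highest library and the groups did not overlap. Without it the mean ratios went from 0.631 to 0.693 for IFIT3, from 0.561 to 0.67 for IFIT1 and from 0.525 to 0.637 for IFIT2. The 3 calls held there, and those of IFIT1 (0.0637) and IFIT2 (0.052) ended without a filter. IFIT2 shares 65 exon bases with LIPA on the other strand. IFIT5, at 2.57 to 2.67 FPKM in siNC and 2.29 to 2.70 FPKM in siPGC1a, did not pass (adjusted p = 0.752).

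OAS enzymes make short oligoadenylates on binding double-stranded RNA, and the 3 tested members fell. OAS3 was at 5.97, 7.45 and 6.23 FPKM in siNC and at 4.21, 3.81 and 4.24 FPKM in siPGC1a (log2 difference -0.56, SE 0.074, limma adjusted p = 0.000243). OAS2 was at 1.92, 3.04 and 1.86 FPKM against 1.12, 0.989 and 1.31 FPKM (log2 difference -0.60, adjusted p = 0.00323). OAS1 was at 2.43, 3.54 and 2.52 FPKM against 1.74, 1.37 and 2.00 FPKM (log2 difference -0.50, adjusted p = 0.0064). No siPGC1a library reached a control in any of the 3, and siNC replicate 2 was again highest. Without it the mean ratios were 0.671, 0.603 and 0.689, and each call held. The OAS1 call ended without a filter (0.0667). OASL, their catalytically inactive relative, rested on 2 to 19 reads per library and its groups overlapped.

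The ISG15 system attaches a ubiquitin-like protein to other proteins, and of its 5 members 3 fell and 2 did not pass. UBE2L6, the conjugating enzyme, fell from 27.4, 30.1 and 28.4 FPKM in siNC to 17.6, 18.7 and 19.5 FPKM in siPGC1a. The fall was large against its SE, which gave the smallest adjusted p among the members (log2 difference -0.59, SE 0.051, limma adjusted p = 2.09e-05). HERC6, a relative of the ligase HERC5, was at 4.69, 4.81 and 4.34 FPKM in siNC and at 2.50, 1.97 and 2.44 FPKM in siPGC1a (log2 difference -0.77, SE 0.071, adjusted p = 3.26e-05). USP18, which removes ISG15 and restrains the interferon receptor, was at 1.08, 1.25 and 1.56 FPKM against 0.717, 0.728 and 0.992 FPKM (adjusted p = 0.013, but 0.0501 without siNC replicate 3 and 0.0869 without a filter). It passed the filter through its siNC values, all siPGC1a values being under 1 FPKM. ISG15 itself did not pass, at 13.3, 21.1 and 16.8 FPKM in siNC and 17.1, 17.8 and 19.5 FPKM in siPGC1a (adjusted p = 0.527). Its controls spanned a wider range than its siPGC1a libraries. Without siNC replicate 2 ISG15 passed as higher (ratio 1.20, adjusted p = 0.0463). HERC5, the main ISG15 ligase, was at 2.03 to 2.51 FPKM in siNC and 2.13 to 2.77 FPKM in siPGC1a (adjusted p = 0.503).

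IFI27, a small interferon-induced membrane protein, had the largest change of the tested members. It stood at 4.85, 2.79 and 2.44 FPKM in siNC and at 0.889, 0.96 and 1.29 FPKM in siPGC1a, a mean ratio of 0.311 (log2 difference -1.06, SE 0.170, limma adjusted p = 0.000782). Here siNC replicate 1, not replicate 2, was the high control, and the ratio without it was 0.4. IFI6, a related protein at a far higher level, showed the same high control, at 126.2, 97.8 and 89.7 FPKM in siNC against 79.7, 79.5 and 90.4 FPKM in siPGC1a. Its groups overlapped, and its call (adjusted p = 0.0355) ended without siNC replicate 1, where the log2 difference went from -0.31 to -0.17 (adjusted p = 0.0596), without siPGC1a replicate 1 (0.107), without siPGC1a replicate 2 (0.084), with sample weights (0.0893) and without a filter (0.195). IFI44 was at 4.25, 5.16 and 4.64 FPKM against 3.48, 2.65 and 3.84 FPKM (log2 difference -0.40, adjusted p = 0.00839, but 0.0753 without a filter). IFI35 was at 18.7 to 21.3 FPKM in siNC and 19.9 to 21.2 FPKM in siPGC1a and did not pass (adjusted p = 0.508).

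GBP proteins are GTPases that attack the vacuoles of intracellular pathogens, and both tested members fell. GBP2 had nearly equal controls, at 8.03, 8.02 and 8.03 FPKM in siNC and 5.58, 5.61 and 5.16 FPKM in siPGC1a (log2 difference -0.48, SE 0.046, limma adjusted p = 3.69e-05). GBP2 shares 621 exon bases with GBP7 on the same strand, itself at a mean of 0.168 FPKM. GBP1 went from a mean of 3.77 ± 0.191 to 2.99 ± 0.245 FPKM (SD, n = 3, adjusted p = 0.0058). PARP9 and DTX3L, which form a ubiquitin ligase complex, fell together with PARP14, while PARP12 did not pass (adjusted p = 0.194). PARP14 was at 6.31, 6.56 and 6.42 FPKM in siNC and at 5.08, 4.30 and 5.00 FPKM in siPGC1a (log2 difference -0.36, adjusted p = 0.000859). DTX3L was at 10.2, 11.0 and 9.76 FPKM against 8.70, 8.32 and 8.52 FPKM (log2 difference -0.25, adjusted p = 0.00269). PARP9 went from 4.64 ± 0.222 to 3.64 ± 0.162 FPKM (SD, n = 3, adjusted p = 0.00173). In none of these 3 did the groups overlap. PARP9 and DTX3L share 217 exon bases on opposite strands, so part of their reads cannot be told apart without the strand setting.

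Of 5 proteins of the TRIM and SP100 families, which include ubiquitin ligases and nuclear body components, 2 fell. TRIM22, an antiviral TRIM protein, fell from 2.70 ± 0.0882 to 1.94 ± 0.127 FPKM (SD, n = 3, log2 difference -0.33, limma adjusted p = 0.00105). TRIM25, the most abundant of them and a ligase that acts on RIG-I signalling, was at 12.4, 13.0 and 12.0 FPKM in siNC and at 11.7, 11.3 and 11.3 FPKM in siPGC1a. Its difference of -0.12 was small, and its call (adjusted p = 0.0483) was lost on leaving out any of the 6 libraries (adjusted p = 0.0631 to 0.17), without a filter (0.0739) and with sample weights (0.098). TRIM21, the cytosolic antibody receptor, missed the threshold (adjusted p = 0.0549) and passed in 6 other settings, with an adjusted p of 0.00831 to 0.181 over all of them. SP100 (0.34) and SP110 (0.0646) did not pass.

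IFITM proteins block virus entry at membranes, and none of the 3 passed. IFITM3 was at 228.7, 249.5 and 231.4 FPKM in siNC and at 235.5, 251.8 and 225.3 FPKM in siPGC1a (log2 difference 0.01, SE 0.050, limma adjusted p = 0.934). IFITM2 (adjusted p = 0.524, but 0.0201 and lower with quantile scaling) and IFITM1 (0.131) lay at means of 90.9 and 29.7 FPKM in siNC and 88.6 and 26.2 FPKM in siPGC1a. Without siNC replicate 2 the log2 difference of IFITM1 went from -0.16 to -0.05. IFITM1 and IFITM2 share 351 annotated exon bases and are close in sequence to IFITM3, so their reads may have been split or dropped. BST2 (tetherin), which holds budding viruses at the surface, fell from 174.8 ± 4.96 to 156.1 ± 4.05 FPKM (SD, n = 3, log2 difference -0.16, adjusted p = 0.00586). LGALS3BP, a secreted glycoprotein and the most abundant member, was at 439.7, 465.8 and 445.3 FPKM in siNC and at 401.2, 415.6 and 374.6 FPKM in siPGC1a (log2 difference -0.18, adjusted p = 0.00773). Its groups did not overlap, and its call ended without a filter (adjusted p = 0.0823). MX2, a GTPase that restricts retroviruses, was at 13.1, 13.4 and 13.2 FPKM in siNC and at 12.6, 12.3 and 12.1 FPKM in siPGC1a (adjusted p = 0.0644, but 0.019 with quantile scaling).

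ISG20, an RNA exonuclease, was the 1 effector that rose, and it is given for that reason after its values were seen. It stood at 0.855, 1.01 and 0.707 FPKM in siNC and at 1.44, 1.21 and 1.21 FPKM in siPGC1a (log2 difference 0.30, SE 0.079, limma adjusted p = 0.0113, but 0.069 without a filter). It passed the filter through its siPGC1a values. The added 1 FPKM shrinks differences of low genes: with a pseudocount of 0.1 the difference was 0.54 for ISG20, and -0.91 for OAS2, -0.61 for USP18 and -0.52 for SAMD9. PLSCR1, a phospholipid scramblase, was at 6.53 to 7.49 FPKM in siNC and 7.40 to 8.62 FPKM in siPGC1a, with overlap (adjusted p = 0.0571, but 0.0258 without siNC replicate 2). SAMD9, a translation-blocking antiviral protein, fell from 1.96 ± 0.114 to 1.35 ± 0.289 FPKM (SD, n = 3, adjusted p = 0.0103, but 0.0759 without a filter).

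Below the filter lay 9 members, and with no filter 4 of them passed as lower, where 7.37% of 30981 genes did. Those 30981 are genes of any level above 0, so this is not a share of low genes alone. IFI44L was at 0.779, 0.939 and 0.58 FPKM in siNC and 0.298, 0.225 and 0.255 FPKM in siPGC1a (58 to 78 reads against 150 to 246, limma adjusted p = 0.0136 without a filter). SAMD9L, the paralog of SAMD9, was at 0.841, 0.891 and 0.758 FPKM against 0.416, 0.333 and 0.473 FPKM (adjusted p = 0.0116 without a filter). MX1, a GTPase that traps virus nucleoproteins, was at 0.733, 1.02 and 0.739 FPKM against 0.468, 0.406 and 0.499 FPKM (adjusted p = 0.0421 without a filter). These and TLR3 showed no overlap between groups. XAF1, a partner of the apoptosis inhibitor XIAP, and RSAD2 (viperin) also had all siPGC1a values below siNC, at 16 to 29 against 34 to 62 reads and at 1 to 7 against 8 to 15 reads, and did not pass. Groups thus did not overlap in 6 of the 9 members, and the share of all genes below the filter that did so was not counted. CMPK2, a mitochondrial nucleotide kinase beside RSAD2, was at 0.396 to 0.536 FPKM in siNC and 0.418 to 0.455 FPKM in siPGC1a.

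**Figure D4:**
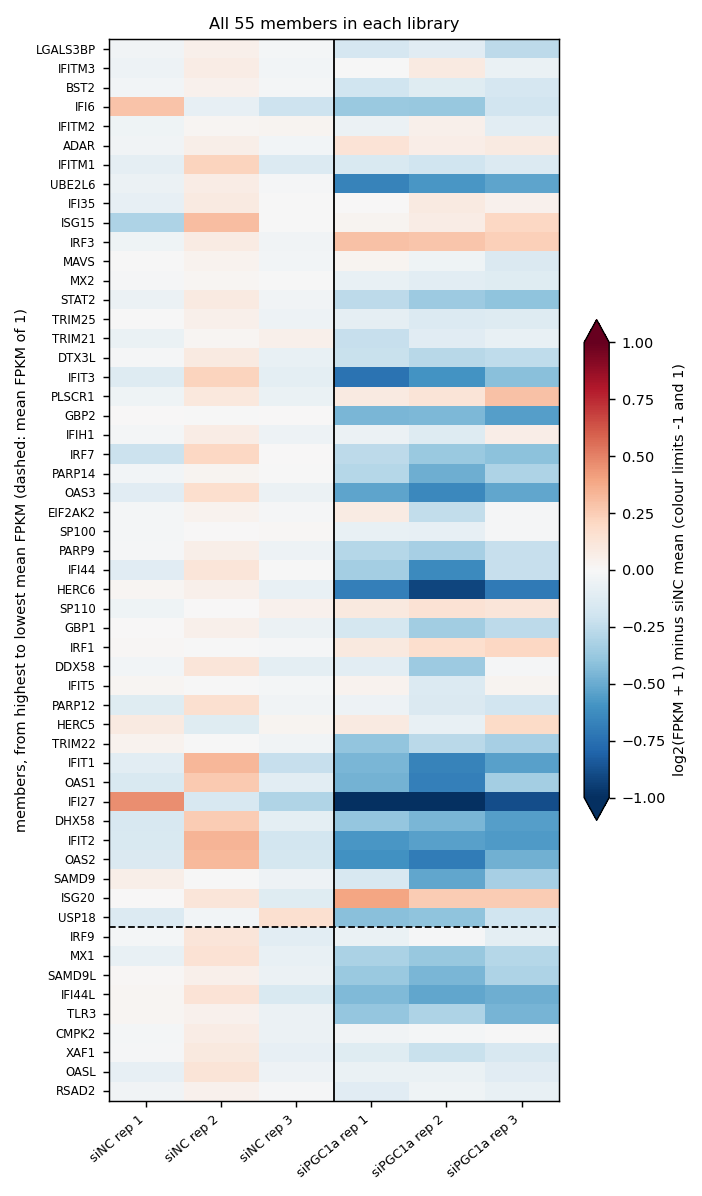
Each of the 55 members in each library as log2(FPKM + 1) minus the mean of the 3 siNC libraries, ordered by mean FPKM, with a dashed line at a mean of 1 FPKM. Blue is lower and red higher than the siNC mean. The siNC replicate 2 column is the reddest of the controls, IFI27 and IFI6 are instead highest in siNC replicate 1, and the siPGC1a columns are blue for the 25 lower members.

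Genes upstream of these responses were read from a list of 47 other genes of interferon signalling and nucleic acid sensing. Of these, 45 were matched, 29 were tested, 11 rose, 10 fell and 8 did not pass, against 25.6% and 22.5% of all genes. The list median was -0.0035, against 0.01 over all genes. This list too was chosen with earlier results of these data known. The 9 interferon genes on it were not tested: IFNE reached at most 0.054 FPKM in a library and the other 8, among them IFNB1, were listed at 0 throughout. A 0 in this table may also stand for reads not assigned, since TREX1, a widely expressed nuclease of the list, was at 0 in all 6 libraries too.

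The chains of the type I interferon receptor were both lower. IFNAR1 was at 16.7, 16.0 and 15.4 FPKM in siNC and at 13.7, 12.2 and 14.2 FPKM in siPGC1a (log2 difference -0.25, limma adjusted p = 0.00694), and IFNAR2 fell from 3.30 ± 0.231 to 2.37 ± 0.207 FPKM (SD, n = 3, adjusted p = 0.00175). IFNGR2, a chain of the interferon gamma receptor, rose from 84.0, 84.2 and 82.9 FPKM to 104.9, 110.0 and 113.2 FPKM (adjusted p = 5.53e-05). The other chain, IFNGR1, did not pass (log2 difference -0.09, adjusted p = 0.168), and its groups overlapped. IFNLR1, another receptor gene of the list, was higher (ratio 1.27, adjusted p = 0.0191, but 0.0816 without a filter). The receptor kinases JAK1, TYK2 and JAK2 rose, at ratios of 1.20, 1.15 and 1.27, and the JAK2 call was lost on leaving out any of 5 libraries. In the signalling layer IRAK1 rose from 69.0 ± 0.918 to 90.8 ± 1.83 FPKM (SD, n = 3, adjusted p = 2.86e-05). IRAK4, the kinase upstream of it behind MYD88, fell from 4.46 ± 0.0953 to 2.29 ± 0.282 FPKM (SD, n = 3, adjusted p = 2.91e-05). TBK1, which phosphorylates IRF3, rose (ratio 1.28, adjusted p = 0.00426), and TMEM173 (STING), the adaptor of DNA sensing, fell (ratio 0.824, adjusted p = 0.00104). Of 9 tested brakes 4 fell and 1 rose, TNFAIP3, whose call (adjusted p = 0.0433) was lost on leaving out any of the 6 libraries (0.0576 to 0.161) and without a filter (0.0822). NLRX1, a mitochondrial protein reported to restrain MAVS, had the smallest adjusted p of the 29 genes, at 5.98, 6.32 and 6.23 FPKM in siNC and 3.13, 3.43 and 2.94 FPKM in siPGC1a (adjusted p = 7.34e-06). IRF2, which competes with IRF1 for DNA, fell from 11.5 ± 0.104 to 8.89 ± 0.315 FPKM (SD, n = 3, adjusted p = 0.000184).

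**Figure D5:**
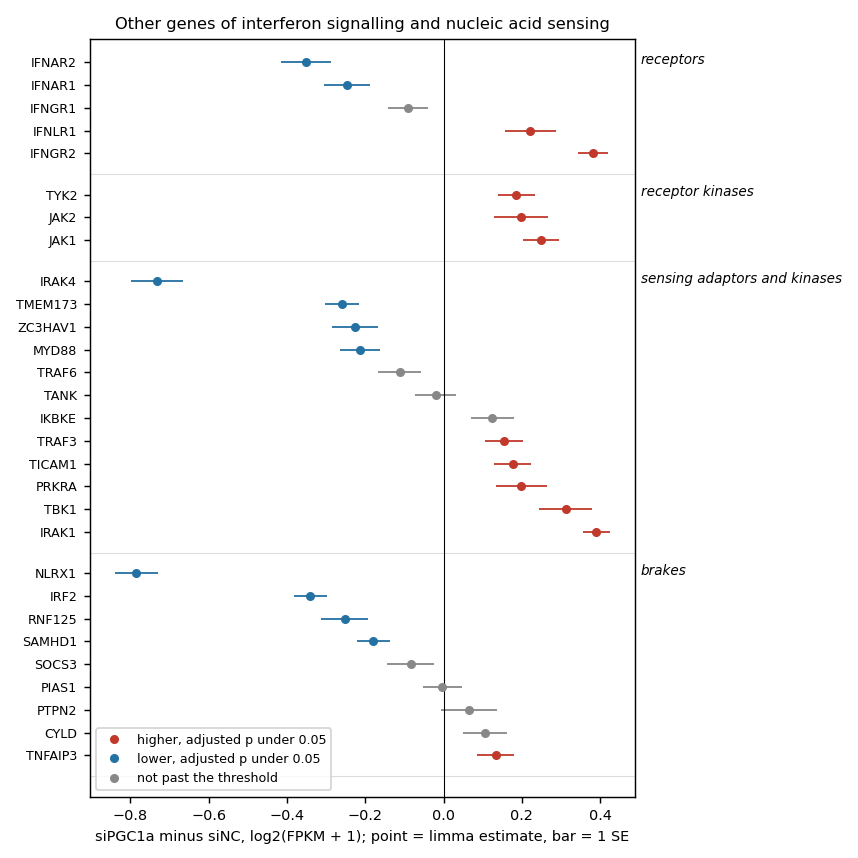
Difference between siPGC1a and siNC (log2(FPKM + 1)) for the 29 tested genes of interferon signalling and nucleic acid sensing that are not members, by role. Points are limma estimates and bars 1 SE (n = 3 libraries per group). The 3 receptor kinases lie to the right, and NLRX1 and IRAK4 lie farthest to the left.

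Across the table, lower genes more often held the word ACACCT in the 3' UTR. The word came from earlier results of these data, so its share here is a description. It stood in the longest annotated 3' UTR of 48.9% of the lower genes that have one, 33.1% of genes that did not pass and 22.8% of higher genes. Among the members it stood in 11 of 25 lower ones (44.0%), in 4 of 18 that did not pass and in 1 of 3 higher ones. The lower members with the word included UBE2L6, HERC6, OAS2, OAS3, IFIT1, IFIT2 and PARP14, and those without it included IFI27, IFIT3, OAS1, GBP2, STAT2 and DHX58. These named genes also differed in 3' UTR length, at 702 (UBE2L6) to 3276 bases (OAS3) with the word and 171 (IFI27) to 1300 bases (OAS1) without it. PARP9, lower and without the word, had 4342 bases. A longer stretch holds any word more often, and none of these shares was matched for length. The part of this word in the results was not tested.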

How the data were processed

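RNA was sequenced from WM3248 cells in 6 libraries, 3 per group. The deposited values are FPKM (reads scaled to gene length and library size), computed by the authors for each gene and library. Per the submitters' processing notes the tools were featureCounts, STAR, DESeq2 and Picard, listed without their roles, and the build hg19. The strand setting is not given in the sources used here. Members and gene lists were chosen with earlier results of these data known.

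Rows were matched by gene symbol. Genes averaging 1 FPKM or more over all 6 libraries, and PPARGC1A, were fitted together as log2(FPKM + 1) with limma 3.58.1 (trend, two-sided, no replicate block) in R 4.3.3, and p-values were Benjamini-Hochberg adjusted over all 12020 genes at a threshold of 0.05. The fit was also run on simulated data with far fewer changed genes than here. That run does not bear on whether these calls are sound. Single members also had an exact two-sided permutation test. All transcription factors and sensors, the effectors with the largest called changes and the most abundant effector of each family are given by library, with the rest in ranges. Read depth came from the steps of the FPKM values with GENCODE v29 exon lengths, which gave whole reads within 0.1 read for 91.5 to 92.1% of the values of up to 20 reads, against 20.0% by chance. The count test on these reads was not run. Other settings were a pseudocount of 0.1, no filter, a mean of at least 5, quantile scaling, sample weights, each library left out and the replicate number as a block. Promoters are from RefSeq (GRCh38.p14), another build than that of the table. A further gene was left out of the signalling list, and its results are not reported here.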

Additional observations from a re-analysis of the deposited data

How the results depend on the processing

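Of the 25 lower members, 15 kept their call in each setting that tested them, and of the 3 higher members IRF3 did. Without a filter on low values 10 lower calls ended, 7 of which ended in no other setting. Counted there over all 55 members, 1 was higher and 19 were lower, and 4 of the 19 were members below the filter of 1 FPKM. The 1 higher was a sensor or factor, with 0 effectors higher. In all 4723 genes were called there, and 7.37% of 30981 genes were lower. With a mean of at least 5 FPKM, which left 25 members to test, 13 were lower, 11 of them effectors, and 1 sensor or factor was higher. There 4126 genes were called in all. Sample weights gave 5 higher members, 2 of them effectors, while genes called in all went from 5782 to 6379. Quantile scaling gave 28 lower members and 2 higher effectors, with 5552 genes called in all. It took the log2 difference of BST2 from -0.16 to -0.25. A pseudocount of 0.1 changed no member's call but enlarged the log2 differences of 4 called members by over 1.5 times. No setting reversed a called member. Shares of all genes by direction were drawn up only for the main fit, without siNC replicate 2 and, for lower genes, without a filter. Member counts of the other settings, here and below, therefore show only how far the calls held.

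Leaving out 1 library at a time gave 2 to 4 higher and 23 to 25 lower members. Sensors and factors were higher in 1 to 2 cases and lower in 3, effectors higher in 1 to 3 and lower in 20 to 22, other pathway genes called in 16 to 19, and genes called in all numbered 4646 to 5366. Libraries with the same replicate number had residual correlations of 0.077, 0.261 and -0.058, and those with different numbers -0.331 to 0.253. With 3 libraries a group this cannot settle whether the numbers pair them. With the replicate block 25 members were lower and 3 higher, 21 pathway genes and 6079 genes in all were called, TRIM25 (adjusted p = 0.0524) lost its call and TRIM21 (0.0223) gained one. Members under 1 FPKM rest on at most 246 reads a library, which limits what can be said of OASL and RSAD2. Some called members rest on few reads as well. USP18 had 61 to 84 reads in siNC and 39 to 55 in siPGC1a, and IFIT2 had 125 to 130 in siPGC1a.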
